A study of Mus musculus with 6 samples.

Results

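The 10 genes described here act in blood clotting and in the dissolution of clots: the plasminogen activators Plat and Plau, the receptor Plaur, tissue factor (F3), the clotting factors F10 and F13a1, the thrombin receptor F2r, and the inhibitory genes Tfpi, Thbd and Procr. They were taken by name, with every probe that the platform annotation assigns to them, which gave 16 of the 45281 probes on the array. Of these, 8 probes for 8 genes (Plat, Plau, Plaur, F10, F13a1, F2r, Tfpi and Thbd, 1 probe each) were detected on at least 3 of the 6 arrays and were tested among 10204 genes, whereas F3 and Procr had no such probe. RNA came from whole hearts of male wild-type C57Bl6 mice, whose ages are not given in the sources used here, and was hybridised to Illumina bead arrays. The 72 h IR group held 3 arrays of hearts in which the left anterior descending coronary artery had been tied for 90 min and then reopened for 72 h (IR, ischemia-reperfusion), under ketamine and pentobarbital anesthesia. The uninjured group held 3 arrays of hearts that, by the labels, came from mice without surgery, although the signal columns name these arrays Sham, and the sources do not settle which holds. If no surgery was done, the operation and anesthesia cannot be told apart from the effect of IR. The letters a, b and c only name the arrays of a group. Nothing in the labels says that each array came from a separate mouse, so the p-values measure the spread between these arrays, which may be technical.

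Clotting starts when tissue factor, normally kept outside the vessel lining, meets factor VII of the plasma and activates factor X, the protein encoded by F10. Activated factor X makes thrombin, thrombin makes fibrin, and factor XIII, whose catalytic A subunit is encoded by F13a1, crosslinks the fibrin. The endothelium of the heart holds this in check with tissue factor pathway inhibitor (Tfpi) and with thrombomodulin (Thbd) and the endothelial protein C receptor (Procr), which together turn thrombin towards activating protein C. Fibrin is removed by plasmin, which tissue-type (Plat) and urokinase-type (Plau) activators release from plasminogen, urokinase acting at its receptor Plaur on the cell surface.

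At 72 h after IR the measured genes of clot dissolution (Plau, Plat and Plaur), the clotting factor genes F10 and F13a1 and the thrombin receptor F2r were higher than in uninjured hearts, and thrombomodulin was lower. Among the 8 tested genes Plau changed most in the main values, at 4.96-fold, whereas F13a1 changed most without background correction, from the authors' processed values and with an offset of 50. Tfpi was 1.51-fold lower after quantile normalization but not under all-probe median scaling, which brings all 45281 probes of each array to one median, and tissue factor and Procr lay at background in both groups. In all, 6 of the 8 tested genes rose and 2 fell (limma, Benjamini-Hochberg adjusted p under 0.05), or 6 and 1 under all-probe median scaling. Of all 10204 genes 39.4% rose and 34.5% fell (73.9% in either direction), or 39.2% and 34.6% without background correction and likewise from the authors' processed values, 59.8% and 17.4% under all-probe median scaling and 32.6% and 43.7% under kept-probe median scaling, which uses the detected probes only. The 2 groups did not overlap for any of the 8 genes, and they did not overlap for 76.7% of all genes. In the main values at least 2-fold changes were seen for 5 rises and 1 fall among the 8, against 15.0% and 13.6% of all genes. Without background correction only Plau (log2 fold change 1.16), F13a1 (1.64) and F2r (1.03) rose at least 2-fold. Thbd (-0.83), Plaur (0.68) and F10 (0.62) did not reach 2-fold there, and the share of all genes was not counted for that setting. The median log2 fold change of the 8 in the main values was 1.30, or 1.05 with F10 set at its bound, against 0.05 for all genes. F10 was detected only after IR and so could pass the detection filter only by being higher there.

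**Figure D1:**
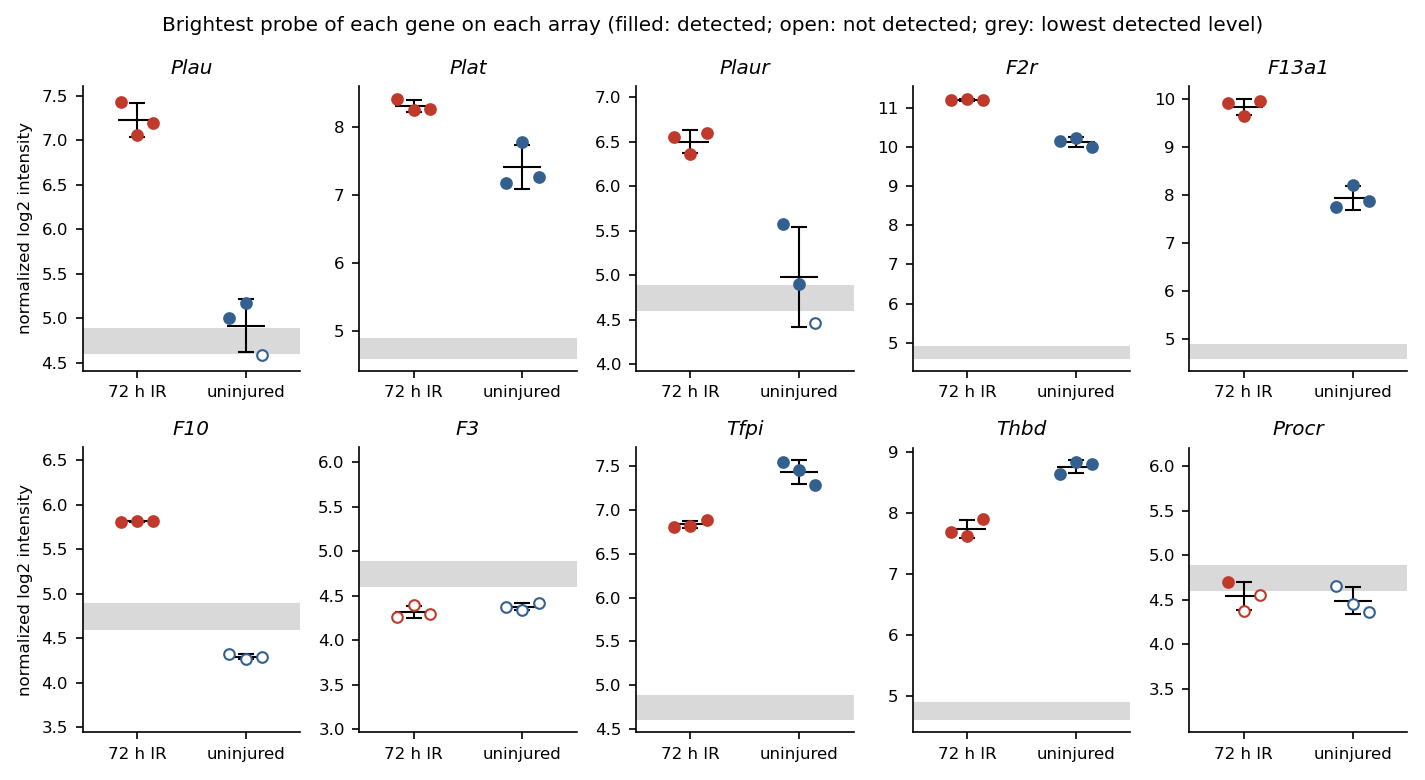
Normalized log2 intensity (vertical axis) of the brightest probe of each of the 10 genes on the 3 arrays of 72 h IR hearts (red) and the 3 of uninjured hearts (blue), with mean and SD. Filled points were detected at p under 0.05, open points were not, and the grey band spans the lowest detected level of the arrays. The IR points of Plau, Plat, Plaur, F2r, F13a1 and F10 lie above all uninjured points, those of Thbd and Tfpi below (Tfpi not so under all-probe median scaling), and F3 lies under the band.

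RefSeq promoter windows of GRCm38.p6, from 250 bases before to 50 after a transcript start, were at hand for 7 of the 10 genes (9 windows), and for Plat, Plau and Thbd they were not used here. They were searched on both strands for TGANTCA, the core of the AP-1 site, which stress-activated Fos and Jun proteins bind, and for GAGGAA, a core bound by the myeloid factor PU.1 and other ETS proteins. AP-1 letters occurred in the windows of 4 genes, Plaur, F2r, F3 and Procr, and in 7.81% of all 32851 windows. GAGGAA occurred in the windows of Plaur, F13a1 and Tfpi, and in 28.3% of all windows. The 4 windows with AP-1 letters and 1 of F13a1 are printed because they belong to genes that rose (Plaur, F2r, F13a1) and to genes that stayed at background (F3, Procr), with matches to either motif in capitals. The AP-1 letters began 69 bases before the start in Plaur, 204 in F2r, 154 in Procr, and 146 and 135 in F3. A match describes these letters only.
Plaur (chr7:24462233-24462532, + strand): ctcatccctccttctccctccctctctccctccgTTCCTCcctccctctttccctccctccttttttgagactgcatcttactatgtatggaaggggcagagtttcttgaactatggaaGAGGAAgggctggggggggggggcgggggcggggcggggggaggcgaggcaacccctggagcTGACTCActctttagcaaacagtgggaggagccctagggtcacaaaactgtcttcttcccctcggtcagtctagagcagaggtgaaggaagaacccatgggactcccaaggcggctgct
F2r (chr13:95618417-95618716, - strand): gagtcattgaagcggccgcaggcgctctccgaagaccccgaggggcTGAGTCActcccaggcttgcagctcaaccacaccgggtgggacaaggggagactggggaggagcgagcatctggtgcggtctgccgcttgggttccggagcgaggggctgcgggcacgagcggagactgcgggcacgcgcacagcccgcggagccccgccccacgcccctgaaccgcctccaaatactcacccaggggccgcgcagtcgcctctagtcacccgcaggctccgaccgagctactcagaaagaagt
F3 (chr3:121723287-121723586, + strand): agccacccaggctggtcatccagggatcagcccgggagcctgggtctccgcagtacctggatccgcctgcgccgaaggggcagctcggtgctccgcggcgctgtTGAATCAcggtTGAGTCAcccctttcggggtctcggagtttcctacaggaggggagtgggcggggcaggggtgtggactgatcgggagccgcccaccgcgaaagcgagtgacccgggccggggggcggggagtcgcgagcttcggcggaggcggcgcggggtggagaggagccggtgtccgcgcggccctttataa
Procr (chr2:155750967-155751266, + strand): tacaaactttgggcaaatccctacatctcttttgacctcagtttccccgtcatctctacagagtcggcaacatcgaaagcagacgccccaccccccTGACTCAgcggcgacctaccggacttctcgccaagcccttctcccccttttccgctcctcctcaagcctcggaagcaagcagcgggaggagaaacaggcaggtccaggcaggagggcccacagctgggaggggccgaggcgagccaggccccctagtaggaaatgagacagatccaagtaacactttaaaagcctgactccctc
F13a1 (chr13:37050195-37050494, - strand): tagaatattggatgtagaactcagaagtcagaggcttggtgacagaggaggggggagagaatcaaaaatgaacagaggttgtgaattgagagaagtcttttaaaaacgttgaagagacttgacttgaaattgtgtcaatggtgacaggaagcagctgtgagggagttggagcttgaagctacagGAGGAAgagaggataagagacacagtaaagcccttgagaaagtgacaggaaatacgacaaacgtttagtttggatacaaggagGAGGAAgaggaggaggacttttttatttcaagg

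The urokinase-type activator Plau, which many migrating cells secrete, had deposited signals of 278, 236 and 250 on IR arrays a, b and c, against 94.0, 94.8 and 88.3 on uninjured arrays a, b and c. Every IR signal was over 2-fold above every uninjured signal, and the probe was detected on all 3 IR arrays and on 2 uninjured arrays, not on c. After background correction and normalization it averaged 7.23 ± 0.19 in IR and 4.92 ± 0.30 in uninjured hearts (log2 intensity, SD, n = 3 each). The log2 fold change was 2.31 ± 0.17 (SE, adjusted p = 1.07e-05), and 350 of the 10204 genes (3.43%) rose further. The size depended on the background correction: it was 1.16 with none and 1.15 from the authors' processed values.

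Tissue-type activator Plat, which endothelial cells release, had signals of 479, 443 and 444 on IR arrays a, b and c, against 174, 243 and 186 on uninjured arrays a, b and c. The groups were apart on each array, although uninjured array b stood nearer to the IR arrays than the others did. Its log2 intensity averaged 8.31 ± 0.09 in IR and 7.41 ± 0.33 in uninjured hearts (SD, n = 3 each), a log2 fold change of 0.90 ± 0.16 (SE, adjusted p = 0.00144) that was 1.53 under all-probe median scaling. The other 2 probes of Plat were detected on no array. The change of Plau minus that of Plat was 1.41 on the log2 scale (95% interval 0.94 to 1.89). In the exact two-sided permutation test this difference had p = 0.1, the smallest that 3 against 3 arrays allow, and an adjusted p of 0.15 over the 3 pairs that could be compared. It was 0.47 without background correction and 0.46 from the authors' values.

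The urokinase receptor Plaur, a marker of activated monocytes and neutrophils, had signals of 185, 172 and 190 on IR arrays a, b and c. On uninjured arrays a, b and c its signals were 104, 90.2 and 85.7, the last of them not detected. The uninjured arrays were spread more widely than for any other gene of the 8, with an SD of 0.56 against 0.13 in IR hearts, yet no uninjured value reached the IR range. Means were 6.50 in IR and 4.98 in uninjured hearts (log2 intensity, n = 3 each), and the log2 fold change was 1.52 ± 0.26 (SE, adjusted p = 0.00112), or 0.68 without background correction. The change of Plaur minus that of its ligand Plau was -0.79 on the log2 scale (95% interval -1.54 to -0.03, exact permutation p = 0.1, adjusted 0.15), or -0.48 without background correction.

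**Figure D2:**
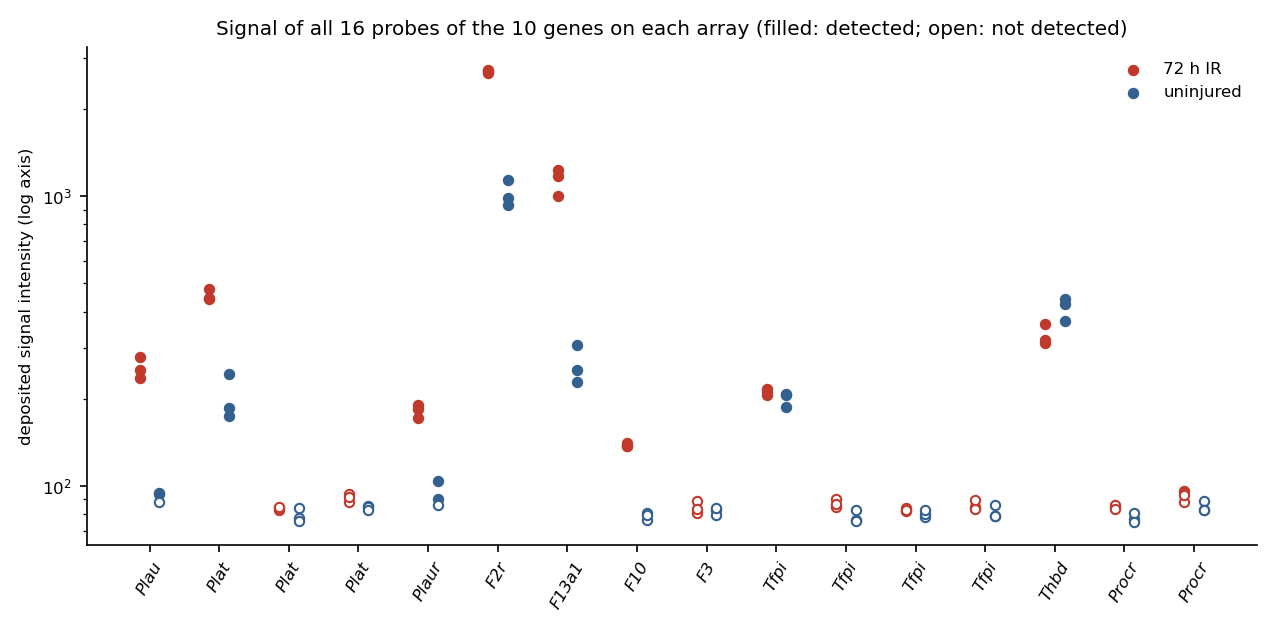
Deposited signal intensity (log axis, no background subtraction) of all 16 probes on the 3 arrays of 72 h IR hearts (red) and the 3 of uninjured hearts (blue), with detected points filled. The 8 probes that were not kept lie between 74.7 and 96.0 in both groups. Tfpi's brightest probe has nearly the same raw signal in both groups, while the raw signals of Thbd are lower after IR.

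Anchors for plasminogen rose alongside its activators. Anxa2 and S100a10, the annexin A2 and p11 chains of a surface complex that binds plasminogen and Plat, averaged 13.42 ± 0.05 and 10.21 ± 0.17 in IR hearts, against 10.74 ± 0.10 and 8.61 ± 0.08 in uninjured hearts (log2 intensity, SD, n = 3 each). Their log2 fold changes were 2.68 ± 0.08 (adjusted p = 1.97e-07) and 1.61 ± 0.10 (SE, adjusted p = 5.38e-06). A second, dimmer Anxa2 probe gave 0.85. Lrp1, the endocytic receptor that clears activator and inhibitor complexes, rose by 1.43 ± 0.09 and Plgrkt, a transmembrane plasminogen receptor, by 0.57 ± 0.06. In this group 4 of 4 measured genes rose, against 39.4% of all genes. Mrc2, the urokinase receptor associated protein, was detected on 2 IR arrays and no uninjured array and was not tested. Plasminogen itself (Plg) was detected on 2 uninjured arrays and no IR array and was not tested. The inhibitors Serpinb2 and Serpinf2 had no kept probe, and Serpine2 and Cpb2 were not analysed here.

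F13a1, made by macrophages and by the megakaryocytes that shed platelets, had signals of 1173, 1004 and 1229 on IR arrays a, b and c, against 228, 305 and 251 on uninjured arrays a, b and c. All 6 arrays detected it, and the lowest IR signal was over 3-fold above the highest uninjured signal. It averaged 9.84 ± 0.17 in IR and 7.95 ± 0.24 in uninjured hearts (log2 intensity, SD, n = 3 each), a 3.72-fold rise (log2 fold change 1.89 ± 0.14, SE, adjusted p = 1.32e-05). Without background correction its log2 fold change was 1.64. Tissue transglutaminase (Tgm2), a related crosslinking enzyme, rose by 1.66 ± 0.06, whereas Tgm1 and Tgm3 had no kept probe.

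Macrophage and platelet markers were set beside F13a1. Of 13 measured macrophage markers 11 rose, 1 fell (Lyve1, -0.65, a call lost under all-probe median scaling) and Cd163 (-0.13) did not pass, and their summed linear level was 18847 to 20768 in IR and 2799 to 3209 in uninjured hearts. Ms4a7 (4.08 ± 0.17) and Fcgr1 (3.46 ± 0.07, detected on 1 uninjured array) had the largest values (Fcgr1 was at 1.95 without background correction, below Lyz2 at 3.12). Itgam and Ccr2 were detected on no uninjured array, so they could pass the detection filter only by being higher after IR. They were at least 1.05-fold and 1.57-fold higher, and Timd4 was not kept. Under kept-probe median scaling 10 rose, and Itgam (-0.05, adjusted p = 0.709) did not pass. Of 7 measured platelet and megakaryocyte markers 4 fell, among them Tubb1, the platelet tubulin, at least 1.96-fold, and Gp9, a subunit of the von Willebrand factor receptor, at least 1.74-fold. Both, and Gp5, were detected on all 3 uninjured arrays and on no IR array. These genes could therefore pass the detection filter only by being higher in uninjured hearts. Pf4 rose by 2.71 ± 0.10 and Ppbp by 0.56 ± 0.20, and the summed platelet level was 3524 to 4413 in IR and 819 to 955 in uninjured hearts. Without Pf4 that sum was 235 to 306 in IR and 253 to 372 in uninjured hearts, ranges that overlap. The part of either cell type in the F13a1 rise was not tested, and in whole-heart RNA fewer or more cells of a type and less or more RNA per cell cannot be told apart.

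F10, the gene of factor X, which the liver supplies to plasma, was near background in the heart. Its signals were 137, 140 and 138 on IR arrays a, b and c, against 80.5, 76.2 and 79.1 on uninjured arrays a, b and c. The IR arrays were tightly grouped and all detected the probe, and none of the uninjured arrays did. F10 was therefore at least 2.03-fold higher after IR, with measured means of 5.82 ± 0.01 in IR and 4.29 ± 0.03 in uninjured hearts (log2 intensity, SD, n = 3 each, adjusted p = 5.75e-07). On the log2 scale the measured difference was 1.52, and 0.62 without background correction. F7, the partner of tissue factor, showed the same detection pattern and was at least 2.62-fold higher (measured log2 fold change 1.79 ± 0.12, adjusted p = 7.27e-06, or 0.73 without background correction). Of the other liver-made factors F2, F5, F9, F11, F12, F13b, Klkb1, Kng1 and the fibrinogen genes Fga, Fgb and Fgg had no kept probe, and neither did the hepatocyte markers Alb, Apoa1, Ttr, Ahsg and Serpina1b. The hepatocyte gene that was kept, Apoa2, stood at -0.35 (log2 fold change), which did not pass, but fell under kept-probe median scaling (-0.81). The changes of F10 and F13a1 differed by -0.37 on the log2 scale (95% interval -0.89 to 0.15, exact permutation p = 0.2, adjusted 0.2), and by -1.02 without background correction. Because F10 was not detected on the uninjured arrays, this difference, its interval and its p rest partly on background values.

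Tissue factor (F3), the trigger of the cascade, gave signals of 80.6, 88.8 and 83.0 on IR arrays a, b and c, against 82.4, 79.1 and 84.1 on uninjured arrays a, b and c. No array detected its single probe, and the ranges overlapped. The log2 fold change was -0.06 (adjusted p = 0.596 in a fit of all probes), and a difference below the detection level of this probe could not be seen.

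F2r, which encodes the thrombin receptor PAR1 of fibroblasts, endothelium and smooth muscle, had signals of 2669, 2737 and 2715 on IR arrays a, b and c, against 983, 1141 and 931 on uninjured arrays a, b and c. The IR arrays were close together and more than 2-fold above every uninjured array. F2r averaged 11.21 ± 0.02 in IR and 10.13 ± 0.13 in uninjured hearts (log2 intensity, SD, n = 3 each), a 2.11-fold rise (log2 fold change 1.08 ± 0.08, SE, adjusted p = 1.30e-05), or 1.03 without background correction. F2rl3, the gene of PAR4, which on mouse platelets takes the place of PAR1, also rose, by 1.02 ± 0.12 (adjusted p = 0.000152), or by 0.47 without background correction. F2rl2 was not kept and F2rl1 was not analysed here.

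Beside F2r, 6 of 8 fibroblast markers rose, led by the collagens Col1a2 (3.87 ± 0.09) and Col1a1 (3.86 ± 0.12), and Dcn (0.01) and Dpt (0.17) did not pass. Under kept-probe median scaling, 5 fibroblast markers rose and 1 fell. The summed fibroblast level was 12774 to 12907 in IR and 9251 to 9744 in uninjured hearts, and all 8 markers were measured. Postn was detected on no uninjured array, so it could pass the detection filter only by being higher after IR. At its bound Postn stood at 0.958-fold, so its rise is not shown. Neutrophil markers rose in 7 of 7 measured cases (5 of 7 under kept-probe median scaling), with S100a8 at 6.27 ± 0.26 and S100a9 at 5.15 ± 0.31, each detected on 1 uninjured array, and a summed level of 2711 to 4164 in IR and 149 to 199.9 in uninjured hearts. Of all genes, 39.4% rose in the main values. Cxcr2, Retnlg and Mpo were detected on no uninjured array, so the filter could keep these genes only if they were higher after IR. Set at its bound, Cxcr2 stood at 2.85-fold, Retnlg at 1.14-fold and Mpo at 1.05-fold. Elane was not kept. The part of fibroblasts and neutrophils in the rises of F2r, Plau and Plaur was not tested.

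Thrombomodulin (Thbd), the endothelial receptor that turns thrombin into an activator of protein C, had signals of 319, 312 and 362 on IR arrays a, b and c, against 370, 442 and 423 on uninjured arrays a, b and c. Every IR signal was below every uninjured signal even before normalization, although IR array c and uninjured array a were close. After normalization Thbd averaged 7.74 ± 0.15 in IR and 8.76 ± 0.11 in uninjured hearts (log2 intensity, SD, n = 3 each), a fall to 0.494 of the uninjured level (log2 fold change -1.02 ± 0.10, SE, adjusted p = 5.49e-05). Of all genes, 13.4% fell further. The fall was -0.43 under all-probe median scaling (adjusted p = 0.0107), where the median of all genes was itself 0.52, against 0.05 in the main values and -0.14 under kept-probe median scaling. Relative to that median Thbd stood at -0.95 in both median scalings and at -1.06 in the main values. Those median scalings shift every gene of an array alike, so their equal values follow by construction.

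The partner of thrombomodulin, Procr, was at background. Its brighter probe gave 96.0, 88.1 and 92.9 on IR arrays a, b and c, against 88.7, 82.5 and 82.3 on uninjured arrays a, b and c. Only IR array a detected it, the ranges overlapped, and the other Procr probe was detected on no array. Protein C itself (Proc) and its inhibitor Serpina5 had no kept probe, but Pros1, the gene of the cofactor protein S, rose by 1.39 ± 0.07 (adjusted p = 1.45e-06).

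Tfpi, the inhibitor of factor X and of the tissue factor complex, was lower after quantile normalization but showed no change under all-probe median scaling. Its deposited signals were 206, 211 and 216 on IR arrays a, b and c, against 207, 207 and 187 on uninjured arrays a, b and c, so the raw ranges overlapped and the ratio of means was 1.05. The IR arrays were brighter as a whole, with a 75th percentile of raw signal of 135 to 138, against 109 to 111 on the uninjured arrays. Quantile normalization gave 6.84 ± 0.04 in IR and 7.43 ± 0.13 in uninjured hearts (log2 intensity, SD, n = 3 each), a log2 fold change of -0.60 ± 0.08 (SE, adjusted p = 0.000435). All-probe median scaling gave 0.05 (adjusted p = 0.748), and kept-probe median scaling -0.61. Relative to the median of all genes Tfpi stood at -0.64 in the main values and at -0.47 in both median scalings, which give equal values by construction. The other 3 Tfpi probes were detected on no array.

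**Figure D3:**
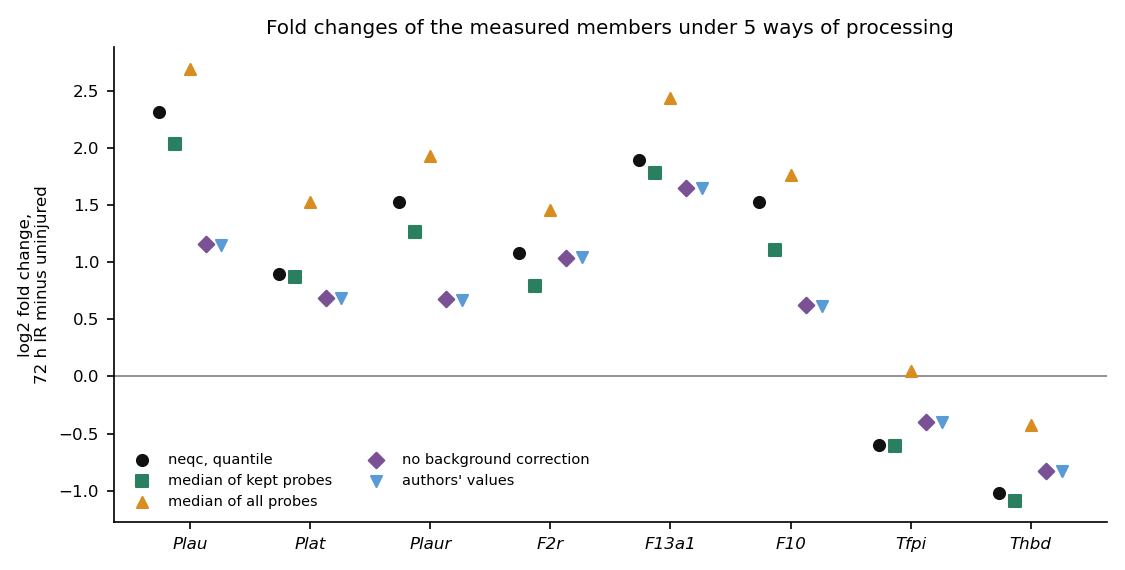
Log2 fold change (72 h IR minus uninjured, vertical axis) of the 8 measured genes under 5 ways of processing the same 6 arrays. The 6 genes that rose do so under each of the 5, Thbd is lower under each, and Tfpi is at -0.60 in the main values and at 0.05 under all-probe median scaling.

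Endothelial markers gave no common direction beside Thbd and Tfpi. Of 11 measured, 1 rose (Cdh5, 0.30) and 5 fell, with a median of -0.05 and a summed level of 7687 to 7897 in IR and 8515 to 9196 in uninjured hearts. Under all-probe median scaling 6 rose and 1 fell, where 59.8% of all genes rose. The list median was 0.38 under that scaling, below the 0.52 of all genes. Flt1, a VEGF receptor, fell by 0.89 ± 0.07, and Tie1, an endothelial receptor kinase, by 0.81 ± 0.08, a call that was lost under that scaling (-0.17, adjusted p = 0.231). Pecam1, Emcn, Egfl7, Esam and Eng did not pass, and Kdr was not kept. Vwf, made by endothelium and megakaryocytes, fell by 0.47 ± 0.13 (adjusted p = 0.0126), turned to 0.15 under all-probe median scaling (adjusted p = 0.275), and did not pass without both c arrays (-0.28, adjusted p = 0.0860). Cardiomyocyte markers were lower in 5 of 7 cases, Ckm at -4.10 ± 0.08 and Myh6 at -2.79 ± 0.07, while Nppa rose and Actc1 (0.04) did not pass, and their summed level was 48601 to 52000.1 in IR and 62501 to 64501 in uninjured hearts. Without Nppa the sum was 31607 to 33101 in IR and 57533 to 59342 in uninjured hearts. Under kept-probe median scaling Actc1 also fell (-0.71, adjusted p = 5.63e-05), making 6 of 7. The part of these cell types in the Thbd and Tfpi values was not tested.

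**Figure D4:**
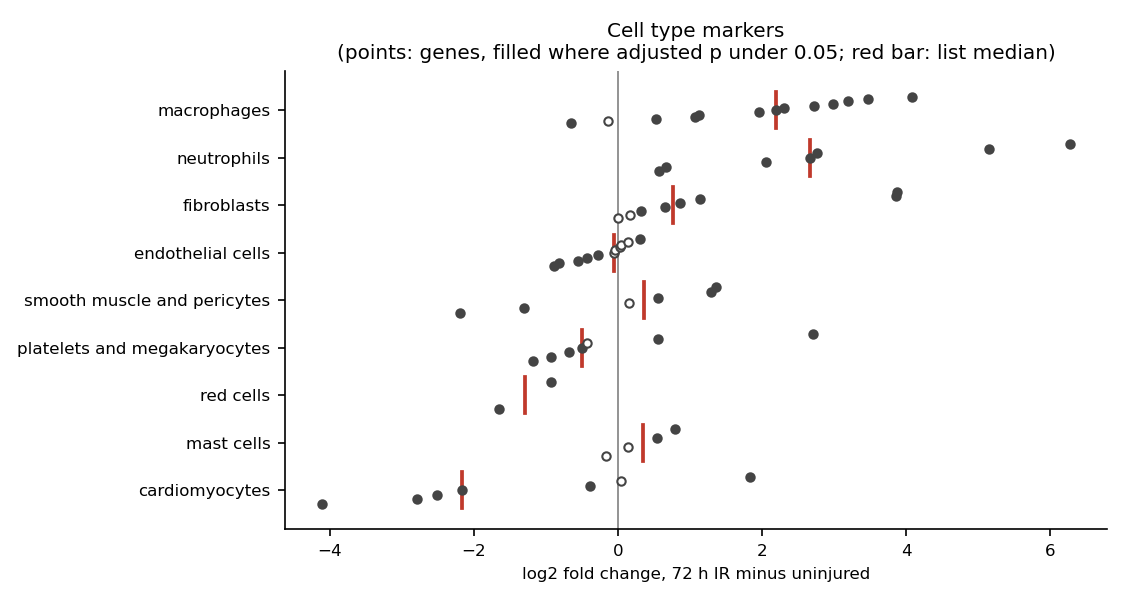
Log2 fold change (72 h IR minus uninjured, horizontal axis) of each measured marker gene by cell type, after quantile normalization, with the list median as a red bar. Macrophage and neutrophil markers lie mostly right of 0, cardiomyocyte markers mostly left, and endothelial markers on both sides (6 of 11 rose under all-probe median scaling, where 59.8% of all genes rose).

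The wider pathway was described with 43 further genes of coagulation and fibrinolysis, of which 16 were measured, 23 had no kept probe and 4 were not analysed here. Of the 16, 13 rose and 1 fell (Vwf), against 39.4% and 34.5% of all genes. Under all-probe median scaling 14 rose, against 59.8% of all genes, and Vwf did not fall. Among the 13, F7 could pass the detection filter only by being higher after IR. The log2 fold changes of the 16 had a median of 1.00, against 0.05 for all genes, or of 0.07 when genes without a kept probe were included. Among the vitamin K enzymes and the export machinery of clotting factors 4 of 5 rose, against 39.4% of all genes. Vkorc1, the warfarin target that recycles vitamin K, led this group at 1.85 ± 0.08, and its 3 probes gave 1.71 to 1.85. Mcfd2, the partner of the export receptor Lman1, rose by 0.98 ± 0.07, and the Vkorc1 paralog Vkorc1l1 by 0.87 ± 0.09. Ggcx, the carboxylase that these enzymes serve, stood at 0.03 (log2) by its brightest probe, which did not pass, but rose under all-probe median scaling (0.69, adjusted p = 9.56e-05). Its other probes gave 0.22 (adjusted p = 0.292) and 0.57 (adjusted p = 0.0492) in the fit of kept probes. Of the anticoagulant group, Serpind1 (heparin cofactor II) rose by 0.70 ± 0.13 beside Pros1, though it was detected on 1 uninjured array and was at 0.23 under kept-probe median scaling (adjusted p = 0.0557) and at 0.26 without background correction. F8 was near the detection limit at 0.03.

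**Figure D5:**
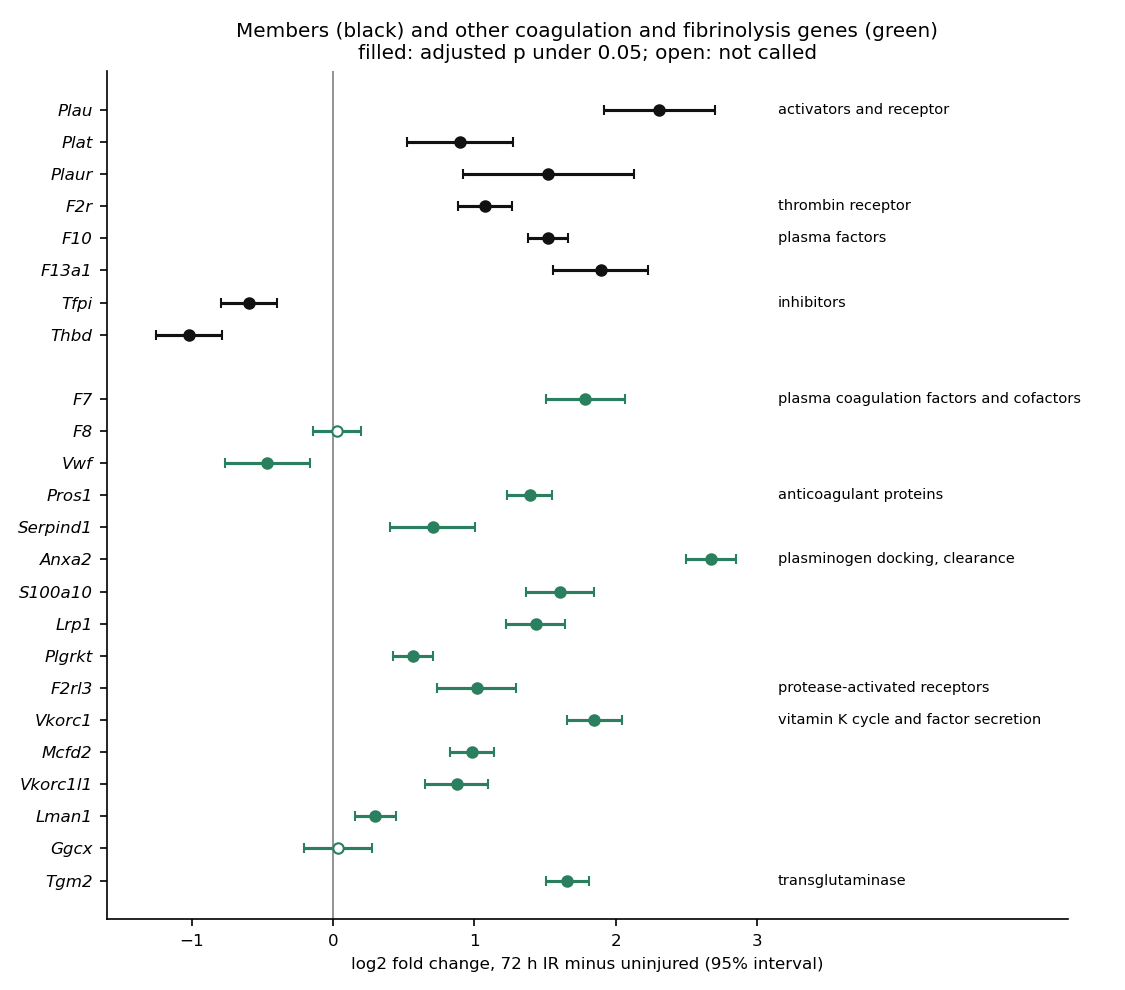
Log2 fold change with 95% interval (72 h IR minus uninjured, horizontal axis, quantile-normalized values) of the 8 measured members (black) and the 16 other measured genes of coagulation and fibrinolysis (green), by role. Anxa2 and Plau lie farthest to the right and Thbd farthest to the left. Tfpi and Vwf turn to 0.05 and 0.15 under all-probe median scaling.

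The genes whose values ran most like each member were found by the root mean square difference of mean-centred log2 values over the 6 arrays, among 9949 named genes. For Plau these were Plekho2 (0.09) and Fbln2 (0.11), for Plat Palb2 and Zfp37 (0.05 each), and for Plaur Eps8 (0.10) and Cnr2 (0.15). For F13a1 they were Slfn2 (0.06) and Cdc45 (0.07), and for F10 Hmgn3 and Snrpd1 (0.03 each). Sec13 and Nras (0.03 each) ran closest to F2r. Epc1 and Rgs7 (0.05 each) ran closest to Tfpi, and Rmdn1 (0.05) and Mrpl16 (0.06) to Thbd. Among these, no gene of the 8 had another of the 8 as its nearest or second nearest gene, which says little with so few members among 9949 genes. Because the groups differ, this distance largely reflects log2 fold changes of like size, as for F2r (1.08) with Sec13 (1.09) and Nras (1.10). A small distance therefore does not show a shared regulation, and for F10 the uninjured values were at background.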

How the data were processed

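Per the labels' protocols, total RNA of whole hearts was biotin-labelled and hybridised to Illumina arrays, 6 in all. The deposited signal intensities and detection p-values of 45281 probes came from GenomeStudio 2010.3, per the submitters' processing notes, with no background subtraction or normalization, as their values show. The authors' processed intensities, quantile-normalized on a linear scale, were an alternative. Signal columns carry a group and an array number but no replicate number.

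With limma 3.58.1 in R 4.3.3, neqc corrected the background from the detection p-values, added 16, quantile-normalized and took log2. Probes detected (p under 0.05) on at least 3 arrays were kept (18197 probes). Symbols followed the platform annotation, updated through RefSeq identifiers. A gene took its brightest kept probe. Groups were compared with lmFit and eBayes over all 10204 genes, with Benjamini-Hochberg adjustment at 0.05, and fold changes understate changes of dim genes. For a gene undetected on a whole group, "at least N-fold" sets the brighter mean against the higher of its value and the lowest detected value per array. Pairs of members were compared by exact permutation (scipy 1.17.1), over 3 of 6 intended pairs, since F3 and Procr were not kept. Summed levels add normalized linear intensities. The limma fit was tested on simulated normalized values, which did not pass through the background correction, normalization or detection filter. The members and lists were chosen with earlier results of these data known. The text names all members, the 3 most changed genes per role group and 2 per marker list, with others to account for a list. The number of arrays limits precision.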

Additional observations from a re-analysis of the deposited data

How the results depend on the processing

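No paired analysis was possible from signal columns because they carry no replicate number of the labels, so the planned replicate block was not run. The authors' processed columns are named by sample, and all 6 ranked the probes like a signal column of their group (Spearman rho 1). A replicate block was not run on them either. The labels do not say that equal replicate numbers pair an uninjured heart with an IR heart. Of 128 fold changes of the 8 members under 16 alternatives each, 127 kept their direction and their call, the exception being Tfpi at 0.051 under all-probe median scaling. Averaging kept probes could not change a fold change, since each member had 1 kept probe. The other detection filters and the robust fit also left the fold changes as they were, and the runs without some arrays reuse the same data. The count of 127 therefore overstates the number of separate checks. Under all-probe median scaling 1 member and 0 other pathway genes fell (14 rose), in place of 2 and 1. Of the other pathway genes 2 fell under kept-probe median scaling, where F8 was -0.55, and 0 without both c arrays, whose column numbers lie apart from the others. Their median of 1.00 became 1.52 (median of all probes), 0.86 (kept probes), 0.73 (no background correction, and also from the authors' values), 0.87 (offset of 50) and 0.073 with no filter. The change of Plau minus that of Plat was 1.16 in both median scalings, 0.47 without background correction, 0.46 from the authors' values and 0.74 with an offset of 50. F10 minus F13a1 was -0.68, -1.02, -1.03 and -1.01 in the same order. The median scalings shift all genes of an array alike, so such differences are equal in both by construction. Vwf turned to 0.15 and Ggcx to 0.69 with the median of all probes. With each array left out in turn F8 ranged from -0.023 (without uninjured array c) to 0.066, and it was -0.014 without both c arrays. Ggcx ranged from -0.062 (without uninjured array b) to 0.098, with -0.0022 without IR array c. The cause of these changes was not tested. With each array left out in turn, members ranged from 2.14 to 2.44 for Plau, 1.27 to 1.82 for Plaur and -1.10 to -0.96 for Thbd. Signals near background limit F10, Plau, Plaur, F7, F2rl3 and Serpind1, whose sizes depend on the correction, and F3 and Procr. The marker sums without Pf4 or Nppa were added after seeing the data.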

Other observations

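Of the remaining marker lists, red cell genes were lower after IR in 2 of 2 measured cases, with Alas2, the first enzyme of heme synthesis in red cell precursors, at -1.65 ± 0.07 and Hba-a1, an alpha globin, at -0.93 ± 0.06 (log2 fold change, SE, n = 3 per group, limma adjusted p = 7.68e-07 and 8.72e-06). Smooth muscle and pericyte genes were divided: 3 of 6 rose, with Acta2 at 1.36 ± 0.08, and 2 fell, with Rgs5 at -2.18 ± 0.11. Of 4 measured mast cell genes 2 rose, Kit by 0.80 ± 0.09 and Cpa3 by 0.55 ± 0.13, with Cpa3 losing its call under kept-probe median scaling (0.08, adjusted p = 0.570), under which 1 rose and 2 fell.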
